A study of Arabidopsis thaliana with 114 samples.

Results

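The 10 genes described here act in leaf senescence and in the breakdown of chlorophyll in Arabidopsis thaliana. They were taken by their gene identifiers, 10 of the 28712 identifiers counted in each library. The set was proposed with earlier results of these data known. Of the 10 genes, 5 encode transcription factors: NAP (AT1G69490), ORE1 (AT5G39610), ORS1 (AT3G29035), JUB1 (AT2G43000) and WRKY53 (AT4G23810). The other 5 encode proteins of chlorophyll degradation: NYC1 (AT4G13250), NOL (AT5G04900), SGR1 (AT4G22920), SGR2 (AT4G11910) and PAO (AT3G44880).

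Leaf senescence is the ordered dismantling of a leaf, in which proteins and chloroplasts are degraded and their nitrogen is exported to growing organs, and a low nitrogen supply is one of the conditions known to bring it forward. Transcription factors of the NAC and WRKY families set its timing; NAP, ORE1, ORS1 and WRKY53 are known as promoters of senescence and JUB1 as a factor that delays it. In the breakdown of chlorophyll, NYC1 and NOL are chlorophyll b reductases, the dechelatase SGR1 removes the magnesium, and PAO, the pheophorbide a oxygenase, opens the ring. SGR2 is a close relative of SGR1.

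Counts of RNA sequencing reads per gene were available for 114 libraries of seedlings grown with 1% sucrose and 1 mM KNO3, 57 from shoots and 57 from roots. All groups share that growth; each organ was sampled at time 0 and at 9 times from 5 to 120 min after supply of N or of KCl, in groups of 3 libraries. N here names 20 mM KNO3 with 20 mM NH4NO3, 60 mM nitrogen in all, and KCl names 20 mM KCl, so the supplies differ in nitrate, ammonium, chloride and salt load, which cannot be told apart. Strain, genotype and age are not given in the labels used here, and the times, labelled without a unit, were taken to be minutes. Nothing in the labels says that the 3 replicates are separate cultures, so p-values measure the spread between these samples, which may be technical. Many samples carry no treatment tag and were placed by their titles, the treatment tag given for N mentions KNO3 alone, and 1 time 0 root library has a source name of shoot beside a title and organ tag of root and was used as root.

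Depth was 5710272 to 43570824 gene counts in 56 shoot libraries and 13878732 to 143269564 in the 57 root libraries. In the shoot the second KCl replicate of 90 min held 1302 gene counts and was left out, so that group has n = 2. In the root the 12 libraries of 10 and 15 min, N and KCl alike, stood apart from the rest: on the first principal component, with 59.1% of the variance, they lay at 0.205 to 0.301 and the other 45 libraries at -0.09 to -0.0547. The summed level of 5 leaf photosynthesis markers was 2791 to 8554 CPM in the shoot libraries outside 10 and 15 min and 47.8 to 274 CPM in the root libraries outside those times, and that of 5 root markers was 1.61 to 15.2 and 158 to 338 CPM. CPM is the count per 1000000 of library size after TMM scaling, within an organ.

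At time 0 the 10 genes spanned a wide range of levels, compared here as CPM per kilobase of annotated exon. In the shoot NAP stood highest at 197 ± 50.1 CPM per kilobase (SD, n = 3), followed by SGR1 at 117 ± 26.8, ORE1 at 86.1 ± 20.7, PAO at 71.7 ± 8.32, NYC1 at 54.6 ± 14.1, WRKY53 at 44.7 ± 5.26, SGR2 at 32.9 ± 9.48, ORS1 at 18.3 ± 5.5, JUB1 at 11.3 ± 1.85 and NOL at 8.73 ± 0.277. Libraries of each neighbouring pair overlapped down to ORS1, and only the last steps, ORS1 to JUB1 and JUB1 to NOL, were clear of overlap. In the root the order was another one, with JUB1 first at 35 ± 3 CPM per kilobase, clear of NAP at 14.8 ± 2.31. ORE1 at 11.1 ± 1.74, WRKY53 at 10.7 ± 1.02 and ORS1 at 9.12 ± 1.33 overlapped with NAP or with each other, and PAO closed the list at 0.79 ± 0.13.

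Between the organs at time 0, 9 of the 10 genes were higher in the shoot and JUB1 was lower (edgeR quasi-likelihood F-test with Benjamini-Hochberg adjustment over 22757 genes; 36.1% of all genes tested were called higher and 43.4% lower). PAO differed most, by log2 6.37 (SE 0.299, adjusted p = 1.04e-32), and the other genes of chlorophyll breakdown by 4.43 (SGR1), 3.81 (SGR2), 3.73 (NYC1) and 1.13 (NOL). Among the transcription factors the shoot minus root difference was log2 3.61 for NAP, 2.83 for ORE1, 1.94 for WRKY53, 0.88 for ORS1 and -1.77 for JUB1 (SE 0.307, adjusted p = 3.4e-07). Organ and file handling coincide, since reads aligned to more than 1 place made up 7.05% to 48.6% of root reads and 0% of shoot reads in the libraries used.

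The main question of the design is which genes respond to N and when. In the shoot, N lowered 4 of the 10 genes at 30 min and 7 or 8 from 45 min on. In the test over all 9 times together 9 of 10 passed, all but NYC1, where 47.4% of the 20899 genes tested passed. At single times none passed at 5, 10, 15 or 20 min (0.0574%, 0.89%, 1.77% and 3.11% of all genes did), 4 were lower at 30 min (2.77% of all genes were called lower), 7 at 45 min (12.6%), and 8 at 60 min (12.6%), 90 min (18.6%) and 120 min (17.8%); none was called higher. The count at 30 min was less firm than the later ones: 2 genes, NAP and ORS1, passed there with RLE size factors, without the filter on low counts, with only the groups compared, with the nearly empty library kept, and without KCl replicate 1 or 2. Without N replicate 1 they were ORS1 and NOL, and without N replicate 3 ORS1, lower, and WRKY53, which was higher. The median N minus KCl difference over the 10 genes was log2 -0.57, -1.19, -1.35, -1.66 and -1.04 at 30, 45, 60, 90 and 120 min, whereas the median over all genes tested lay between -0.029 and 0.0028 at these times. At 60 min all N libraries lay below all KCl libraries for 9 of the 10 genes, an arrangement met by 21.1% of all genes. At 15 min, when none passed, the lean was the other way: 1 of the 10 genes lay below 0 and the median was log2 0.15. All N libraries then lay above all KCl libraries for 3 of the 10 genes (10.9% of all genes) and below them for 0 (11.1%). The samples are bulk tissue, so fewer cells of a type and less RNA per cell cannot be told apart.

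**Figure D1:**
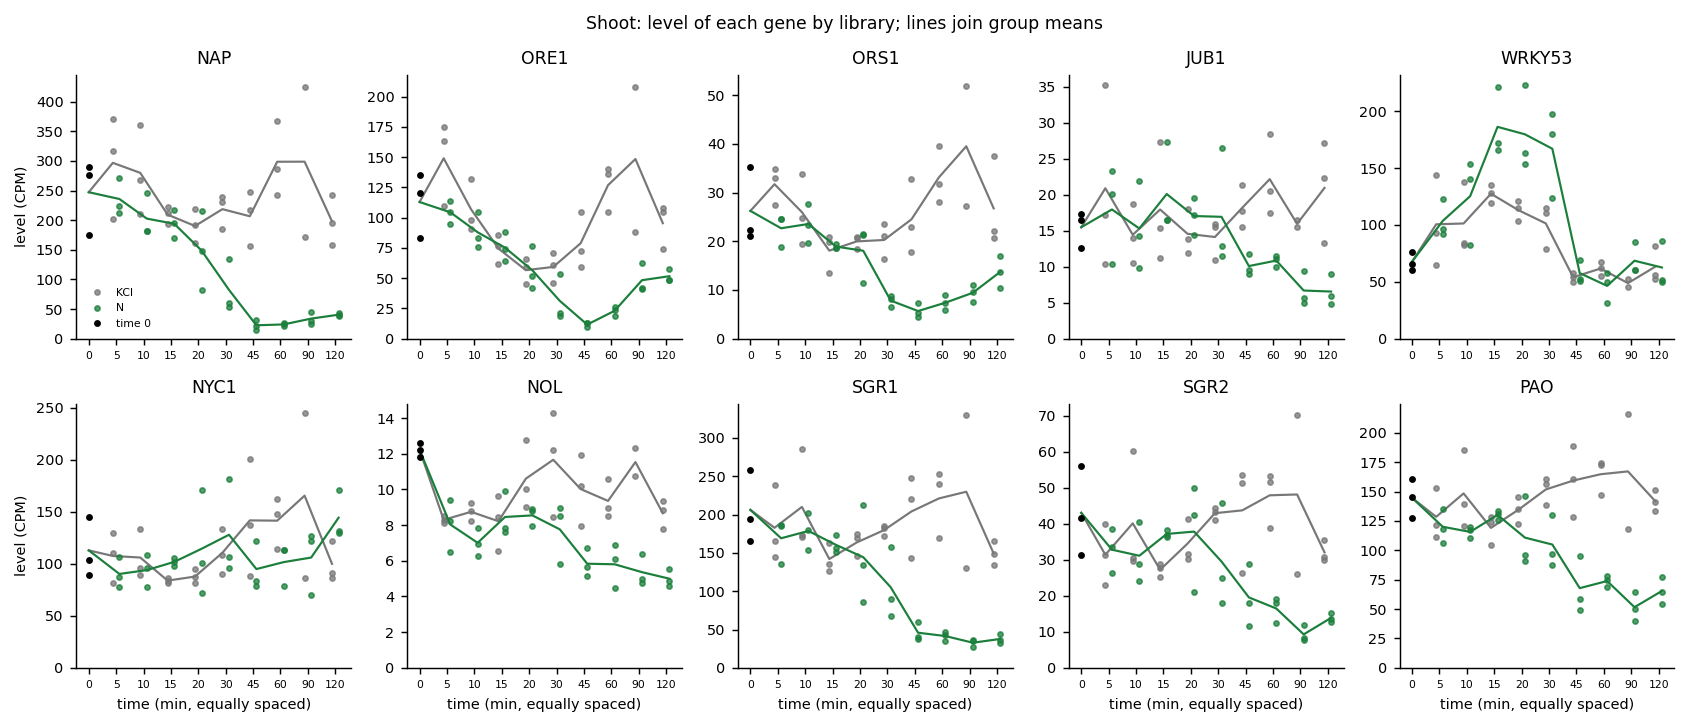
Level in CPM of each of the 10 genes in the shoot against time in minutes (times equally spaced), 1 point per library, with lines through the group means of N (green) and KCl (grey) from time 0 (black). NAP falls from 247 CPM at time 0 to 22.5 CPM in N at 45 min, WRKY53 peaks at 186 CPM in N at 15 min, and the KCl libraries of 90 min (2 points) lie far apart for most genes.

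NAP, whose loss is known to delay leaf senescence, had the largest N effect of the 10 genes. At 60 min the KCl libraries held 242, 286 and 368 CPM and the N libraries 24.6, 21.0 and 26.5 CPM. Every N library lay below every KCl library at that time, and the means stood at 24.0 ± 2.83 and 299 ± 63.6 CPM (SD, n = 3 each; N at 8.05% of KCl; log2 -3.63, SE 0.346, adjusted p = 3.15e-11). The decline in N was already present at 30 min, where 1 library stood apart with 135 CPM beside 52.7 and 59.6, against 186 to 239 CPM in KCl (log2 -1.41, SE 0.317, adjusted p = 0.00208). At 120 min N stood at 40.4 ± 3.21 CPM and KCl at 198 ± 42.1 (log2 -2.29, SE 0.327).

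ORE1, a NAC factor that is known to activate genes of cell death and chlorophyll loss in ageing leaves, reached its lowest level in N at 45 min and then came back in part. At 45 min the KCl libraries held 72.3, 105 and 59.3 CPM and those of N 12.5, 12.6 and 9.77 CPM, with no overlap (log2 -2.76, SE 0.314, adjusted p = 4.96e-09). The N means of 45, 60, 90 and 120 min were 11.6 ± 1.61, 23.0 ± 3.58, 48.3 ± 12.3 and 51.6 ± 5.36 CPM, while KCl stood at 95.4 ± 18.8 CPM at 120 min (log2 -0.89, SE 0.288, adjusted p = 0.0131). ORE1 also moved in KCl, from 112.9 ± 27.1 CPM at time 0 to 56.6 ± 10.5 at 20 min and 127 ± 19.5 at 60 min, and KCl differed from time 0 in the test over all times (adjusted p = 0.00142). No single KCl time passed its own test for ORE1, and without KCl replicate 1 the any-time adjusted p was 0.0619.

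ORS1, the closest relative of ORE1, ran a similar course at a lower level. The 3 N libraries held 6.4, 8.84 and 8.22 CPM at 30 min and the KCl libraries 21.0, 23.5 and 16.3 CPM, again without overlap (log2 -1.38, SE 0.276, adjusted p = 0.000501). The difference was log2 -2.16 (SE 0.275, adjusted p = 4.35e-08) at 60 min and -0.96 (SE 0.264) at 120 min. From 45 to 120 min the N mean moved from 5.67 ± 1.48 to 13.7 ± 3.29 CPM.

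JUB1, the factor known to delay senescence, was also lower in N, but later. It passed from 60 min on, and its largest difference was at 120 min, with 27.2, 13.3 and 22.4 CPM in the KCl libraries and 4.78, 5.93 and 8.93 CPM in those of N (log2 -1.66, SE 0.374, adjusted p = 0.000394). All N libraries lay below all KCl libraries from 45 to 120 min. At 45 min the adjusted p was 0.0816.

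WRKY53 differed from the other transcription factors, with no call of a lower level. Its N libraries lay above all KCl libraries at 15, 20 and 30 min, and also at 90 min, where KCl has n = 2. It passed over all times together (adjusted p = 0.0171) and at no single time, and without KCl replicate 1, KCl replicate 2 or N replicate 2 the any-time adjusted p was 0.0738, 0.0595 or 0.0793. At 30 min it passed as higher with DESeq2 (log2 0.74, adjusted p = 0.0449) and without N replicate 3 (0.92, adjusted p = 0.00959). At 20 min the N libraries held 153, 163 and 223 CPM and the KCl libraries 115, 121 and 104 CPM. These did not overlap, yet the difference of log2 0.67 (SE 0.25) had an adjusted p of 0.171, and at 30 min log2 0.72 (SE 0.251) had 0.0793. Both supplies moved WRKY53 early: against 67.7 ± 7.97 CPM at time 0, it stood at 186 ± 30.3 in N and 127 ± 8.04 in KCl at 15 min, and both passed (N minus time 0 log2 1.46, adjusted p = 8.77e-05; KCl minus time 0 log2 0.91, adjusted p = 0.0293). By 45 min it was back at 57.7 ± 10.2 CPM in N and 54.0 ± 3.72 in KCl. At 60 min N was the lower one at 46.4 ± 13.5 CPM beside 61.7 ± 6.01 (log2 -0.41, SE 0.253, adjusted p = 0.247), and at 120 min the means were 62.6 ± 20.4 and 63.3 ± 16.1 CPM.

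The chlorophyll genes differed among themselves. SGR1, the magnesium dechelatase, had the largest N effect of the 5. At 60 min its KCl libraries held 170, 240 and 253 CPM and its N libraries 46.7, 35.5 and 42.3 CPM, without overlap (log2 -2.41, SE 0.298, adjusted p = 2.14e-08). At 90 min, where 1 KCl library held 330 CPM and the other 130, N held 26.7, 35.5 and 36.2 CPM (log2 -2.81, SE 0.321, adjusted p = 2.06e-09; -1.98 without KCl replicate 1 and -3.34 without KCl replicate 3, both passing).

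SGR2 fell with a similar course. N held 19, 12.4 and 18 CPM at 60 min and KCl 38.9, 51.6 and 53.2 CPM, and the groups did not overlap (log2 -1.54, SE 0.338, adjusted p = 0.000473). Its lowest N mean was 9.28 ± 2.29 CPM at 90 min, when the KCl libraries held 70.2 and 26.1 CPM (log2 -2.39, SE 0.379, adjusted p = 2.1e-06). That difference was -1.5 without KCl replicate 1 and -2.94 without KCl replicate 3, and it passed in both cases.

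PAO, the ring-opening oxygenase, fell to about the same extent at 45 and 60 min. At 60 min KCl held 147, 175 and 172 CPM and N 78.0, 68.6 and 75.1 CPM, all N libraries being lower (log2 -1.16, SE 0.206, adjusted p = 2.51e-05). At 45, 90 and 120 min the differences were log2 -1.23 (SE 0.207), -1.7 (SE 0.226) and -1.12 (SE 0.207).

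The chlorophyll b reductases parted. NOL was lower in N from 30 min, by log2 -0.59 (SE 0.184, adjusted p = 0.0424) at 30 min with overlapping libraries, and by -0.8 (SE 0.188, adjusted p = 0.000715) at 120 min, when N held 5.56, 4.56 and 4.87 CPM and KCl 7.76, 9.38 and 8.86 CPM. NYC1, which carries out the same step, did not pass over all times (adjusted p = 0.129; 0.0308 without KCl replicate 3) or at any single time. At 60 min it stood at 102 ± 19.6 CPM in N and 141 ± 24.6 in KCl (log2 -0.48, SE 0.298), and at 120 min at 144 ± 23.3 in N and 100.0 ± 19.1 in KCl (log2 0.53, SE 0.298, adjusted p = 0.166).

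The size of the N effect differed between times for 8 of the 10 genes in the shoot, all but WRKY53 and NYC1 (30.9% of all genes passed that test). Set against time 0, 2 of the 10 genes passed over all times in the KCl shoots, WRKY53 and ORE1 (8.75% of all genes). With DESeq2 ORS1 and NOL passed as well, where 3087 rather than 1828 of all genes did. N shoots differed from time 0 in 9 of 10 (51.8%), with 7 lower at 45 min (16.2% of all genes lower) and 8 lower at 120 min (20.5%). Both of these comparisons share the time 0 libraries.

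Library measures differed between N and KCl in the shoot, also at times when none of the 10 genes passed. At 15 min, such a time, reads outside any gene had a mean share of 1.95% in N and 4.3% in KCl. Reads outside any gene made up a smaller mean share in N than in KCl until 30 min, when they were 1.9% and 3.81%, and a larger one afterwards, with 3.47% and 3.07% at 45 min and 3.98% and 2.92% at 90 min. The summed level of the 5 photosynthesis markers was 5015 to 5176 CPM in N and 3677 to 6860 CPM in KCl at 60 min. At 120 min it was 4113 to 6100 and 5141 to 7738 CPM. Of these markers, 2 of 5 passed the any-time test, RCA and LHCB2.1 (40%, beside 47.4% of all genes). The summed level of the root markers stayed at or below 15.2 CPM in every shoot library. Each of the 5 had counts in some shoot libraries, and 3 of them (PLT1, RHD6 and TIP2;3) were at 0 in others. The part of the share of reads in no gene in these results was not tested.

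In the shoot the members' promoters can be set beside this response. The windows run from 250 bases before to 50 bases after the annotated gene start, in RefSeq's annotation of the assembly TAIR10.1, 5′ to 3′ on the gene's strand. Capitals mark TTGAC, the core of the W-box that WRKY factors bind, and ACGTG, the core of the G-box, each on either strand, and overlaps are joined. Shown are 3 genes that fell most with N, SGR2 as the relative of SGR1, and NYC1, which did not pass.
NAP promoter, TAIR10.1, chr1:26121830-26122129, plus strand: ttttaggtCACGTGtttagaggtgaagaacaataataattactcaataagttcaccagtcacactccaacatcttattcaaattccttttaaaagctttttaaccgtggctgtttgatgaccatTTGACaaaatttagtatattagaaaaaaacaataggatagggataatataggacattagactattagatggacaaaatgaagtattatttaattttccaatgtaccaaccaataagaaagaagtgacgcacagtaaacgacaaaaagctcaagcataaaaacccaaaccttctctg
ORE1 promoter, TAIR10.1, chr5:15859862-15860161, minus strand: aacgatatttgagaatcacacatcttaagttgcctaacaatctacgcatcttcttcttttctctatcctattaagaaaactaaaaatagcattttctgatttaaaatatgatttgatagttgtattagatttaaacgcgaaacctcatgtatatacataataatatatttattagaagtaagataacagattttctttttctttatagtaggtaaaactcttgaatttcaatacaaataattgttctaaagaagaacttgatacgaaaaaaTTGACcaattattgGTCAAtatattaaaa
SGR1 promoter, TAIR10.1, chr4:12018594-12018893, minus strand: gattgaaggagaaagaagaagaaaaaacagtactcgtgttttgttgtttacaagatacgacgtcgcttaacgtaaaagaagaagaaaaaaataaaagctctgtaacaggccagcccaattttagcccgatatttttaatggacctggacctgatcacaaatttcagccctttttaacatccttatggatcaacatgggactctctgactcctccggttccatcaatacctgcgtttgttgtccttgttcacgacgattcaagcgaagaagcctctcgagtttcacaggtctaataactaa
SGR2 promoter, TAIR10.1, chr4:7155900-7156199, plus strand: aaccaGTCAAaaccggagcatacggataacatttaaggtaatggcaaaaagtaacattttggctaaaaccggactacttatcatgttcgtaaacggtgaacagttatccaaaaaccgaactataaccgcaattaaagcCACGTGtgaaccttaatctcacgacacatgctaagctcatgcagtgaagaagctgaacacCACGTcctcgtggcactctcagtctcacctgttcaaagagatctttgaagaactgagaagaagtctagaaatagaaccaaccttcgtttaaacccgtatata
NYC1 promoter, TAIR10.1, chr4:7686957-7687256, minus strand: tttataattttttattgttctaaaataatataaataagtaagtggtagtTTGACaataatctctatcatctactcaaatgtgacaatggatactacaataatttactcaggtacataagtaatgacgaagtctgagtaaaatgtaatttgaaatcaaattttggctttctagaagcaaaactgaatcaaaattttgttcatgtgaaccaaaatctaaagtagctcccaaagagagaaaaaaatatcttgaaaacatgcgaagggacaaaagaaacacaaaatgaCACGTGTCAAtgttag

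The G-box CACGTG was found in the windows of NAP, NYC1, NOL and SGR2, so 4 of 10, and in 7.68% of 27443 windows of protein-coding genes. Every CACGTG holds ACGTG, which was in the same 4 windows and in 26.7% of all. TTGAC was in 6 windows (NAP, ORE1, JUB1, WRKY53, NYC1 and SGR2) and in 50.5% of all windows; CACG was in 6 and in 52.7%, and TACGTA in none and in 5.55%. The CACGTG of NAP starts 242 bases before the gene start and that of SGR2 112 bases before it, whereas in NYC1 it starts at base 35 of the gene. Of the 4 genes that hold the G-box, NAP, NOL and SGR2 were called lower in the shoot and NYC1 did not pass. Of the genes that lack it, ORE1, ORS1, JUB1, SGR1 and PAO were called lower and WRKY53 was not. The part of the motif in the response was not tested. A match of letters is a description and not a binding site.

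In the root N raised NAP and lowered JUB1, SGR1, SGR2 and, at some times, ORE1. Over all times 7 of 10 passed (NAP, ORE1, JUB1, NYC1, NOL, SGR1 and SGR2), where 61% of 22185 genes tested passed; ORS1, WRKY53 and PAO did not. At single times none passed at 5, 10 or 20 min (1.97%, 17.4% and 3.76% of all genes did). JUB1 and ORE1 were lower at 15 min (17% of all genes were called lower) and at 45 min (7.89%), and NYC1 was higher at 30 min (3.31%). At 60 min 4 were lower (12.5% of all genes) and NAP was higher (14.5%), at 90 min 2 were lower (8.28%) and 2 higher (8.27%), and at 120 min 3 were lower (18.5%) and NAP higher (18.6%). With only the groups compared, 3 genes passed at 60 min (JUB1, SGR1 and SGR2) and 2 at 90 min (NAP and JUB1), and the same 2 passed at 90 min without N replicate 1. Over all genes, 3126 rather than 5995 passed at 60 min with only the groups compared. The size of the N effect differed between times for 5 of 10 genes (NAP, ORE1, JUB1, NYC1 and SGR1; 40.2% of all genes), and for 3 without N replicate 1 (NAP, JUB1 and NYC1) or N replicate 3 (NAP, ORE1 and JUB1). The median over the 10 genes was log2 -0.51 at 60 min, 0.16 at 90 min and -0.11 at 120 min.

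**Figure D2:**
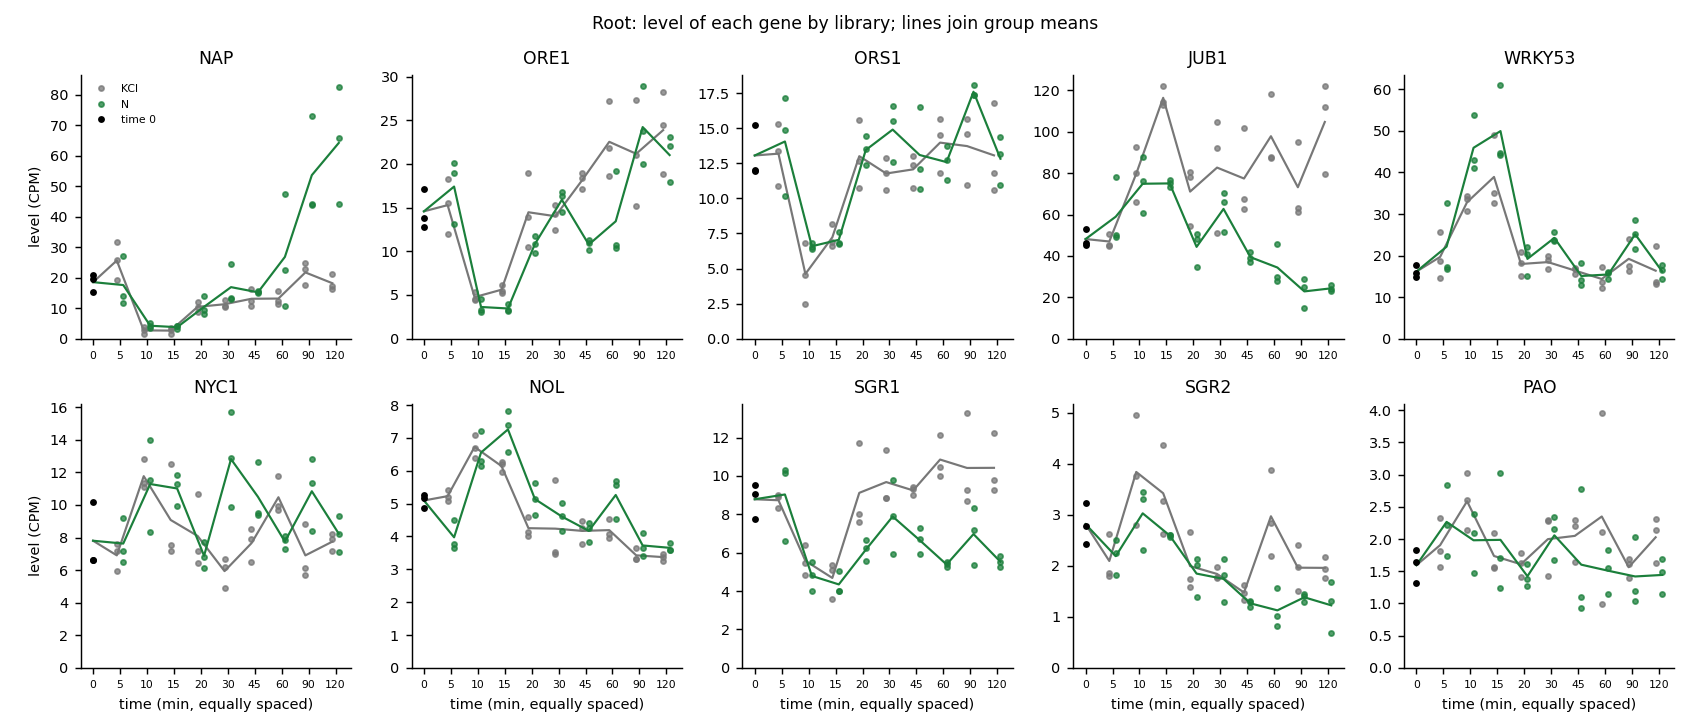
Level in CPM of each of the 10 genes in the root against time in minutes (times equally spaced), 1 point per library, with lines through the group means of N (green) and KCl (grey) from time 0 (black). NAP reaches 64.2 CPM in N at 120 min and JUB1 104.8 CPM in KCl, and at 10 and 15 min NAP, ORE1 and ORS1 dip in both supplies.

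NAP went the other way in the root. At 120 min the N libraries held 44.1, 82.6 and 65.9 CPM and the KCl libraries 17.1, 21.1 and 16.4 CPM. All N libraries were above all KCl libraries (log2 1.82, SE 0.339, adjusted p = 4.44e-05), as they were at 90 min (log2 1.3, SE 0.334, adjusted p = 0.0038). At 60 min the N libraries held 10.7, 22.4 and 47.4 CPM and overlapped with 12.4, 11.5 and 15.6 CPM in KCl (log2 1.02, SE 0.339, adjusted p = 0.0221), so 1 library carried much of that mean.

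JUB1 fell in the root as in the shoot, from a higher level. At 120 min KCl held 112, 122 and 79.8 CPM and N 23.9, 23.3 and 25.8 CPM, without overlap (log2 -2.1, SE 0.239, adjusted p = 2.81e-09). At 15 min N held 73.1 to 76.8 CPM and KCl 112.9 to 122 CPM (log2 -0.63, SE 0.231, adjusted p = 0.0388). The difference passed again at 45 min (log2 -0.98, SE 0.233, adjusted p = 0.00275) and grew to -1.51 (SE 0.236) at 60 min and -1.68 (SE 0.238) at 90 min. Part of it lay in the KCl roots, where JUB1 was above its time 0 level of 48.2 ± 4.12 CPM at 120 min (log2 1.12, SE 0.231, adjusted p = 0.000119), while N roots were below it (log2 -0.98, SE 0.232, adjusted p = 0.000812).

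ORE1 was lower in N at 15, 45 and 60 min in the root. At 45 min the N libraries held 11.25, 10.96 and 10.102 CPM and those of KCl 17.16, 18.98 and 18.36 CPM, with no overlap (log2 -0.75, SE 0.212, adjusted p = 0.0118). At 60 min the call was lost without KCl replicate 3 (adjusted p = 0.0606), without N replicate 1 (0.0706) or with only the groups compared (0.0807). No gene passed at 15 min without KCl replicate 1, KCl replicate 2, N replicate 2 or N replicate 3. At 120 min the means were 21.0 ± 2.77 CPM in N and 23.9 ± 4.7 in KCl, within each other's spread. ORS1 stood between 10.7 and 18.1 CPM in N and between 10.6 and 16.8 CPM in KCl from 20 min on and did not pass (adjusted p = 0.3 over all times); WRKY53 did not pass either (adjusted p = 0.118).

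Of the chlorophyll genes, SGR1 was lower with N in the root from 60 min. At 120 min N held 5.24, 5.84 and 5.5 CPM and KCl 9.77, 12.2 and 9.27 CPM, all N libraries lying lower (log2 -0.92, SE 0.186, adjusted p = 0.000154). SGR2 held 0.811, 1.56 and 1.01 CPM in N and 2.85, 3.88 and 2.19 CPM in KCl at 60 min, also without overlap (log2 -1.37, SE 0.279, adjusted p = 0.000279). SGR2 and PAO were both near the lower end of what was measured, at 0.69 to 4.97 CPM and 0.924 to 3.95 CPM in all root libraries. PAO did not pass (adjusted p = 0.536). Of the 5 leaf photosynthesis markers, 2 passed in the root over all times, RCA and LHCB2.1 (40%, beside 61% of all genes). Both were lower in N at their time of smallest p, and LHCB2.1 was lower at 60 min (log2 -1.68, SE 0.631, adjusted p = 0.0419). The median N minus KCl difference of the 5 was log2 -0.70 at 60 min and -0.49 at 120 min. Their summed level was 50.4 to 110 CPM in N and 69.1 to 214 in KCl at 60 min, 57.6 to 89.5 and 71.5 to 153 CPM at 120 min, and none of the 5 was at 0 in any root library; their part in the SGR1 and SGR2 results was not tested.

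NYC1 was higher in N at 30 min in the root. The N libraries held 12.9, 9.89 and 15.7 CPM and the KCl libraries 4.93, 6.19 and 6.69 CPM (log2 1.11, SE 0.215, adjusted p = 0.000276), and the groups did not overlap. It was higher again at 90 min with overlapping libraries (log2 0.65, SE 0.213, adjusted p = 0.0279). NOL passed only over all times together (adjusted p = 0.0341), and leaving out any 1 replicate of KCl or N other than KCl replicate 3 gave 0.0512 to 0.219.

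The root libraries of 10 and 15 min bear on the time course there. Against time 0, KCl roots had no called gene at 5 min, 72.9% of all genes called at 10 min, 68.7% at 15 min and 20.1% at 20 min. Of the 10 genes, NAP, ORE1, ORS1 and SGR1 were lower at 10 min in KCl (38.6% of all genes lower) and JUB1, WRKY53, NYC1 and NOL higher (34.3%). In N at 10 min, set against the same time 0 libraries, NAP, ORE1, ORS1 and SGR1 were lower (36.5%) and JUB1, WRKY53, NYC1 and NOL higher (32.2%). NAP went from 18.5 ± 2.9 CPM at time 0 to 2.72 ± 1.23 at 10 min in KCl and 4.24 ± 0.896 in N, and was at 10.4 ± 1.5 CPM in KCl at 20 min. Both marker lists were higher in these libraries, at 125 to 460 CPM for the photosynthesis markers and 377 to 798 CPM for the root markers, and the part of what sets these libraries apart was not tested.

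With 10 and 15 min left out, an alternative chosen after seeing the data, the same 7 genes passed for N against KCl over all times in the root (55% of all genes did). KCl against time 0 passed for 6 genes, where 59.9% of all genes passed, rather than for 9, where 89.3% did: ORS1 (adjusted p = 0.895), WRKY53 (0.515) and SGR1 (0.638) no longer did.

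The N effect itself differed between shoot and root in 8 of the 10 genes, all but JUB1 and WRKY53, where 36% of 22757 genes passed (1 fit of all libraries). For NAP the shoot minus root difference of the N effect was log2 -4.64 (SE 0.496, adjusted p = 3.75e-11) at 60 min and -4.11 (SE 0.486) at 120 min, the largest among the 10 genes at both times. ORS1 differed by -2.4 (SE 0.364) and SGR1 by -2.21 (SE 0.372) at 90 min, ORE1 by -1.99 (SE 0.379) at 45 min, and NOL by -1.22 (SE 0.24) at 90 min. PAO (-1.56, SE 0.41), SGR2 (-1.87, SE 0.481) and NYC1 (-1.28, SE 0.396) passed at 90 min and at no other time, and shoot KCl has 2 libraries there. Without KCl replicate 1, which leaves 1 shoot KCl library at 90 min, 5 of 10 passed over all times, and PAO (adjusted p = 0.146), SGR2 (0.407) and NYC1 (0.13) did not. Refits that keep 2 shoot KCl libraries at 90 min also lost some of these any-time calls. SGR2 had an adjusted p of 0.118 without KCl replicate 2, 0.0512 without N replicate 1 and 0.0605 without N replicate 3. NYC1 had 0.0999 without KCl replicate 2 and 0.105 without N replicate 1, and PAO 0.0773 without N replicate 2. JUB1 fell in both organs, and its difference over all times had an adjusted p of 0.181.

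**Figure D3:**
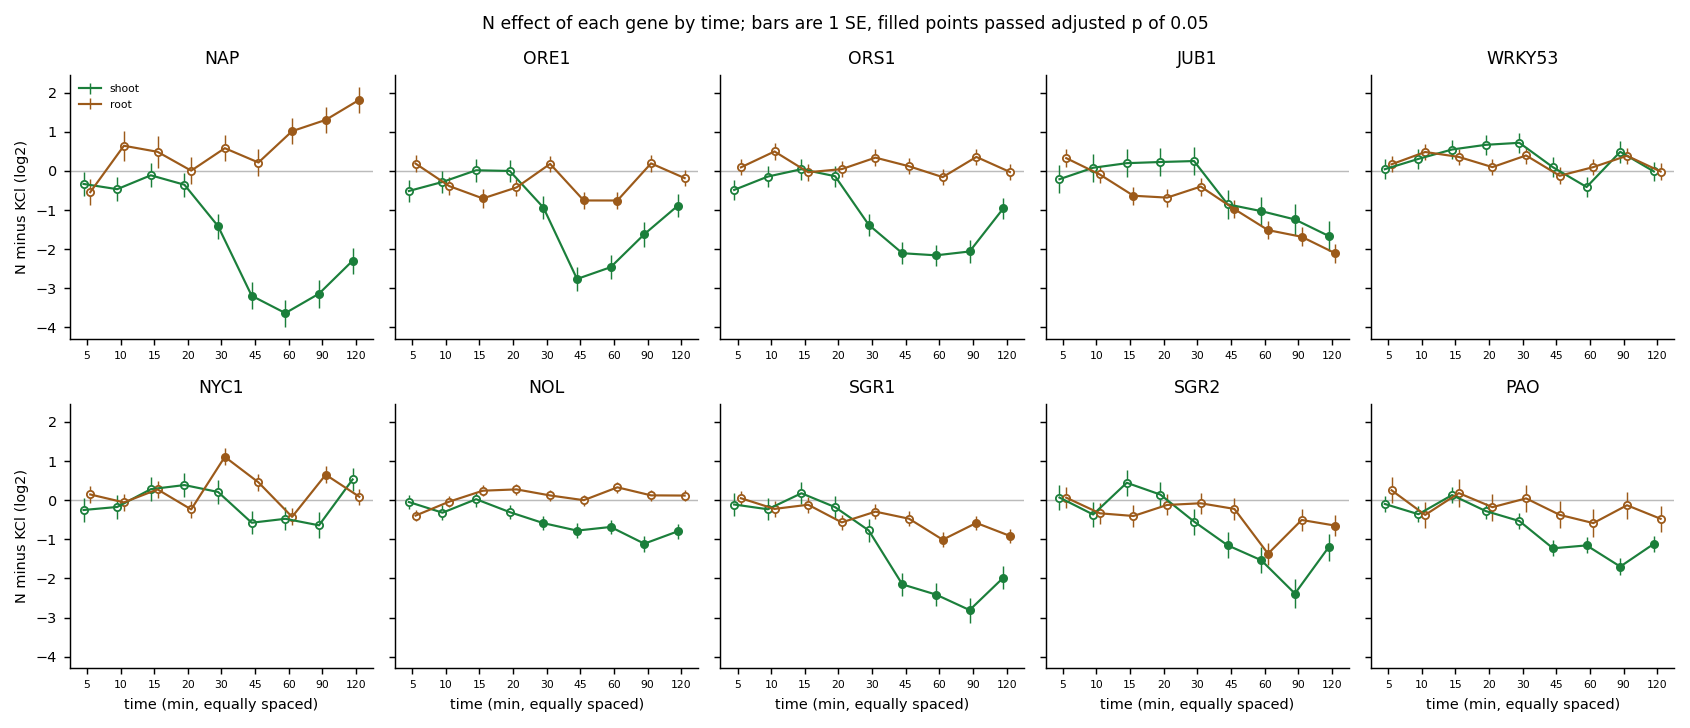
N minus KCl difference (log2, edgeR) of each gene against time in minutes (times equally spaced) in shoot (green) and root (brown); bars are 1 SE and filled points passed an adjusted p of 0.05. NAP goes to -3.63 in the shoot at 60 min and to 1.82 in the root at 120 min, while JUB1 falls in both organs.

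Across the 19 shoot groups the members' mean log2 CPM values moved in a few sets, given here as a description since the groups share libraries' depth, supplies and times. SGR1 ran with PAO (Pearson r = 0.97), SGR2 (0.95) and NAP (0.97), SGR2 with PAO (0.97), and ORE1 with ORS1 (0.96). WRKY53 reached r = 0.33 at most with any other member (JUB1), and NYC1 0.23 (ORS1), while r between WRKY53 and NYC1 was -0.39. In the 19 root groups NAP and JUB1 ran against each other (r = -0.71), and so they did in the 15 groups without 10 and 15 min (-0.72). SGR1 and NAP had r = 0.44 in all root groups and -0.44 without those times.

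The genes most like each member over the shoot groups, among those with a mean of at least 5 CPM, were in part known relatives. For ORE1 they were NAC047 (r = 0.96; 0.97 in the root), AT5G57340 (0.96; 0.92) and its own relative ORS1 (0.96; 0.87), and for ORS1 they included NAC046 (0.96; -0.40 in the root). All root values of this paragraph include the groups of 10 and 15 min. Without those times the root r of ORE1 and ORS1 was 0.40. SGR2 ran with CCD8, a carotenoid cleavage dioxygenase of strigolactone synthesis (0.98 and 0.90 in the root), and with PPH, the pheophytinase of chlorophyll breakdown (0.98 and 0.84 in the root). SGR1 ran with CYP81H1 (0.99; -0.10), MYB2 (0.99; -0.45) and BAM1 (0.99; -0.44), NAP with CAX7 (0.98; -0.69) and PAO with AT5G39090 (0.99; 0.11). The best match of NYC1 had r = 0.80 (NAC075) and that of WRKY53 0.96 (CCR4).

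Other genes of the same pathways were counted in lists. Of 10 further genes of chlorophyll breakdown, 5 passed over all times in the shoot, all lower at their time of smallest p. In the root 4 of 10 passed, 3 lower and 1 higher. These are shares of 50% and 40%, beside 47.4% and 61% of all genes. At 90 min alone, 5 of the 10 were called lower in the shoot (18.6% of all genes) and 1 higher (18.8%). The gene called higher did not pass over all times. CYP89A9, a cytochrome P450 that modifies chlorophyll catabolites, stood at 40.5 ± 11.2 CPM in N (n = 3) and 369 ± 141 in KCl (n = 2) at 90 min in the shoot (log2 -3.19, SE 0.302, adjusted p = 1.88e-11). PPH followed with log2 -1.6 (SE 0.203, adjusted p = 2.23e-08), TIC55 with -0.74 (SE 0.171) and ACD2, the red chlorophyll catabolite reductase, with -0.63 (SE 0.124), all at 90 min. In the root PPH was at 24.5 ± 2.31 CPM in N and 43.6 ± 4.54 in KCl at 120 min (log2 -0.83, SE 0.141), ACD2 and CYP89A9 were lower at 60 min by log2 -0.54 and -0.52, and SGRL was higher at 120 min by 0.61 (SE 0.174).

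Of 28 further regulators of senescence 20 passed in the shoot, 10 higher and 10 lower at their time of smallest p, and 20 in the root, 12 higher and 8 lower. The share was 71.4% in both organs, beside 47.4% of all genes in the shoot and 61% in the root. In the shoot MAX2, an F-box protein of strigolactone and karrikin signalling, stood at 30 min at 76.4 ± 10.2 CPM with N and 30.4 ± 6.44 with KCl (log2 1.33, SE 0.135, adjusted p = 3.61e-10). The cytokinin receptor gene AHK3 was lower at 60 min (log2 -0.73, SE 0.109), the NAC gene RD26 at 45 min (-1.82, SE 0.253) and MYB2 at 90 min (-3.68, SE 0.564), where its KCl libraries were 102 ± 87 CPM (n = 2). RD26 was higher in the root at 30 min (1.22, SE 0.17, adjusted p = 5.45e-07), as were VNI2 at 30 min (1.28, SE 0.161) and RAV1 at 90 min (2.35, SE 0.258), and NAC087 was lower at 120 min (-1.19, SE 0.209).

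Of 20 senescence-associated genes and known targets, 15 passed in the shoot, 11 lower and 4 higher, and 16 in the root, 9 lower and 7 higher. That is 75% and 80%, beside 47.4% and 61% of all genes. SAG21, a small protein of the late embryogenesis abundant class, rose in both organs at 90 min, to 1710 ± 208 CPM from 401 ± 28.1 in KCl in the shoot (log2 2.09, SE 0.188) and to 1630 ± 124 from 207 ± 40.7 in the root (log2 2.98, SE 0.201). ASN1, an asparagine synthetase, was at 5.75 ± 1.18 CPM in N and 0.0834 ± 0.073 in KCl at 120 min in the shoot, and at 30.7 ± 5.34 and 0.55 ± 0.19 CPM at 90 min in the root. ERD1, an ATP-binding subunit related to the Clp protease (log2 -1.2, SE 0.237, 90 min), and SAG18 (-0.79, SE 0.131, 120 min) were lower in the shoot. In the root DIN2, a beta-glucosidase, was higher (2.33, SE 0.322) and SAG113, a protein phosphatase, lower (-2.29, SE 0.408), both at 90 min.

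Of 14 genes of chlorophyll synthesis 1 passed in the shoot, CHLH of the magnesium chelatase (751 ± 16 CPM in N, 1113 ± 91 in KCl at 15 min, where its own adjusted p was 0.232), and 9 in the root, 4 higher and 5 lower. In the root DVR was higher at 60 min (log2 1.18, SE 0.237, adjusted p = 0.000226) and CHLI1 at 10 min (0.56, SE 0.155), and PORC was lower at 60 min (-1.15, SE 0.376) and CHLD at 5 min (-0.66, SE 0.144). Without N replicate 2 or N replicate 3 the root count was 5, and in the shoot it was 0 without KCl replicate 2, KCl replicate 3, N replicate 2 or N replicate 3 and 2 without KCl replicate 1 or N replicate 1. The shares passing over all times were 50% and 40% for the further breakdown genes, 71.4% in both organs for the regulators, 75% and 80% for the senescence-associated genes and 7.14% and 64.3% for synthesis, in shoot and root, beside 47.4% and 61% of all genes.

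**Figure D4:**
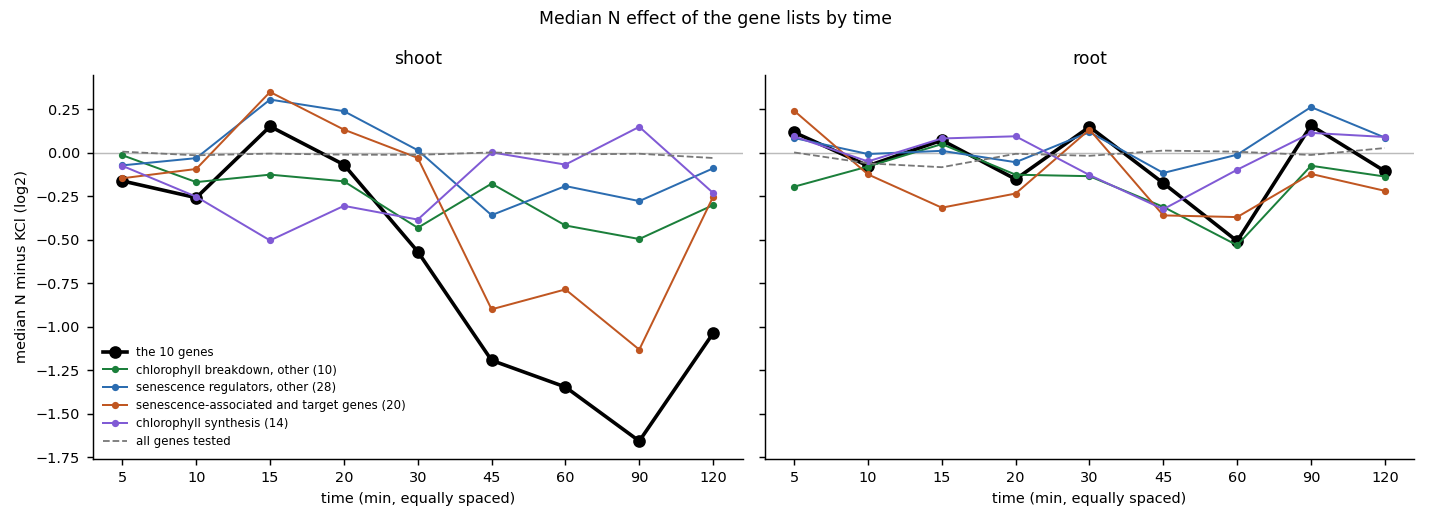
Median N minus KCl difference (log2) of the 10 genes and of 4 further lists (number of genes in brackets) against time in minutes (equally spaced), with the median of all genes tested (dashed), in shoot and root. In the shoot the median of the 10 genes reaches -1.66 at 90 min and that of the senescence-associated genes -1.13, while chlorophyll synthesis is at 0.15; in the root no list goes below -0.54.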

How the data were processed

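The authors deposited raw counts per gene for each library, covering 28712 identifiers, followed by 5 lines of reads given to no gene. Those lines held 4.2% to 7.78% of the reads in the shoot libraries used and 9.71% to 53.2% in the root libraries, and they stayed out of library sizes and tests. PolyA RNA was taken from about 100 mg of tissue and the second strand was made with dUTP, per the labels' protocols. The submitters' processing notes name TAIR10 as genome build, TopHat2 (version 2), HTSeq and limma, with no role or order stated; the strand setting of the counting is not given in the sources used here, so reads of overlapping or near-identical genes are uncertain.

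These counts went into edgeR 4.0.16 (R 4.3.3) unchanged, with a separate fit for each organ and a mean for each group. Low genes were dropped with filterByExpr (count 10, total 15) and TMM scaled the libraries. Tests are quasi-likelihood F-tests, Benjamini-Hochberg adjusted over all genes within a contrast at a threshold of 0.05; differences between organs came from 1 fit of 113 libraries. Levels are CPM on the TMM library size as mean ± SD. The script was tested on simulated data. Alternatives were RLE size factors, no filter, DESeq2 1.42.0, a replicate block, leaving out each replicate of KCl, of N or of time 0 at all times, keeping the nearly empty library, fitting only the groups compared and, chosen after seeing the data, leaving out 10 and 15 min. No pair of libraries of a group held identical counts.

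The 10 genes, the gene lists, the tests and the alternatives were chosen with earlier results of these data known. Named genes are all 10 members, up to 4 passing genes per list and organ with the smallest any-time p, and the 3 genes most like each member by Pearson r of mean log2 CPM (prior count 2) over the shoot groups, with some of these left unnamed. Symbols were checked in the RefSeq table of TAIR10.1, where 89 of 92 list symbols were found. Promoter windows and exon lengths were read from the genome and annotation of TAIR10.1 (RefSeq), not from the files, which hold no coordinates.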

Additional observations from a re-analysis of the deposited data

Results flagged for a closer look

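The N effect differed between shoot and root for 8 of the 10 genes, by the test of that difference in 1 fit of all libraries. For PAO, SGR2 and NYC1 that call was lost when some single replicates were left out. NAP differed by log2 -4.64 at 60 min, where N minus KCl was -3.63 in the shoot and 1.02 in the root. ORE1 differed by -1.99 at 45 min, where both organs were lower with N (-2.76 in the shoot and -0.75 in the root). At 90 min SGR1 differed by -2.21, and it too was lower with N in both organs (-2.81 and -0.58).

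The other 5 genes were taken at 90 min, where 1 shoot KCl library is higher than the other for each of the 10 genes and the group has n = 2. ORS1 differed by -2.4 (-2.06 in the shoot, 0.36 in the root, the latter with an adjusted p of 0.273 by edgeR). NOL differed by -1.22 (-1.11 in the shoot; 0.12 in the root, adjusted p = 0.651 by edgeR). For PAO the difference was -1.56 and for SGR2 -1.87, beside -1.7 and -2.39 in the shoot and root values of -0.13 and -0.51 that did not pass. For NYC1 it was -1.28, with -0.64 in the shoot (adjusted p = 0.123 by edgeR) and 0.65 in the root (adjusted p = 0.0279).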

How the results depend on the processing

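For N against KCl over all times, every alternative run kept the calls of the shoot for all passing genes but WRKY53, and those of the root for all but NOL. The organ difference at time 0 was called for 10 of 10 genes under every alternative run. Of 230 log2 values of single genes under alternatives, 222 kept direction and side of the threshold; 1 changed sign, NYC1 at 90 min in the shoot (log2 -1.22 without KCl replicate 3 and 0.31 without KCl replicate 1, which leaves 1 library there, assumed to vary like the other groups). At 30 min in the shoot 4 genes passed, and 2 with RLE size factors, the nearly empty library kept, no filter on low counts or only the groups compared; without 1 replicate, 2 to 4. With only the groups compared, 2 passed at 15 min in the shoot rather than 0, WRKY53 and SGR2. In the main fit 1 of the 10 genes lay below 0 at that time. In the root, likewise with only the groups compared, 1 passed at 20 min rather than 0, 3 at 60 min rather than 5 and 2 at 90 min rather than 4. Counts over all genes moved there too. In the shoot they were 744 rather than 369 at 15 min and 802 rather than 1404 at 30 min. In the root they were 2233 rather than 834 at 20 min and 3126 rather than 5995 at 60 min. In the root without 1 replicate, 0 to 1 passed at 10 min, 0 to 2 at 15 min (1 with RLE size factors) and 2 to 3 at 90 min; the change of the N effect over time passed for 3 to 6 rather than 5 (40.2% of all genes), and the organ difference of the N effect for 5 to 8 rather than 8. KCl against time 0 in the shoot passed for 2 genes, for 4 with DESeq2 and for 1 to 3 without 1 replicate. Chlorophyll synthesis had 1 gene in the shoot, 2 with DESeq2, 0 with the nearly empty library kept and 0 to 2 without 1 replicate, and 9 in the root, 5 to 8 without 1 replicate. Counts over all genes moved by over 1.5 times in 47 of 315 alternatives, among them root N against KCl at 10 min (3866; 134 with only the groups compared), shoot 90 min (7798; 3998 likewise) and shoot KCl against time 0 (1828; 3087 with DESeq2, 742 without KCl replicate 1). The cause was not tested. The deviations of same-numbered N and KCl libraries had a median correlation of -0.03 in the shoot (-0.40 to 0.47, 26 pairs) and 0.04 in the root (-0.26 to 0.23, 27 pairs). Libraries of different numbers had medians of 0.01 and -0.02. These values gave no sign of a general pairing by replicate number, but they cannot exclude that some same-numbered libraries share a batch. A fit with the replicate block left 9 genes called in the shoot and 7 in the root over all times and 8 for the organ difference, and changed no other call of a single gene.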
